A study of Mus musculus with 19 samples.

Results

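Expression in circulating leukocytes of DBA/2 mice was compared between 8 w and 0 w after administration of CAWS, a water-soluble mannoprotein-β-glucan fraction from Candida albicans that induces coronary arteritis in this strain. The comparison rests on 4 of the 19 arrays of the series, chosen by their titles, with 2 arrays for each week. All mice of these 2 groups were male DBA/2 mice, 5 to 14 weeks of age. The paper's schedule was CAWS intraperitoneally, at 0 or 1 mg per mouse, on each of 5 consecutive days. It sets 0 w right after the last injection and does not state the dose for each array, so that the 0 w samples cannot be taken as untreated. The 8 w samples came from mice that had survived until then. Set beside them were 2 DBA/2 samples each of 2 w, of 4 w and of 9 w and male B6 samples at 0 w and 8 w (2 each, on 5 arrays in all), from mice on the same injection schedule. Time since the injections, survival and the age of the mice cannot be told apart in this comparison. The paper names Japan SLC and Charles River Japan as sources of the mice and does not assign them to arrays. A difference of supplier therefore cannot be told apart either. RNA was isolated with the LeukoLOCK system, which collects leukocytes from whole blood, although the labels also call the cells PBMC. The labels call the 2 samples of a week biological replicates, and by the methods the labelled RNA of individual mice was hybridized.

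Each Cy3-labelled RNA had its own Agilent array, which carries probes to genes of the whole mouse genome. With 2 arrays a week, precision is set by the number of arrays. Both replicate 1 samples lay on one slide and both replicate 2 samples on another, so that each slide holds 1 array of each week. On the 4 arrays, from 42.64% to 49.54% of the spots were well above background by the scanner software's own call, against 33.92% to 51.42% over all 19 arrays. The replicates of a week correlated with r = 0.973 at 0 w and r = 0.974 at 8 w across 22831 probes, as a description. Values below are normalised signals, which are the processed signal of a probe scaled to a common 75th percentile, and log2 changes, which are the mean log2 signal at 8 w minus that at 0 w. Values of a gene are those of its brightest probe.

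The defining markers of leukocytes were present. All 6 neutrophil markers with a probe, all 5 T cell markers, all 5 B cell markers and 3 of 4 classical monocyte markers were well above background on all 4 arrays. Neutrophils are normally removed when mononuclear cells are prepared, and their markers were present here at both weeks. All 4 platelet and all 4 erythroid markers were also well above background on all 4 arrays, as in RNA from blood that still holds platelets and reticulocytes. Of the hepatocyte markers, 0 of 4 were well above background on all 4 arrays, and Alb, Apoa1, Ttr and Fabp1 were not on either 8 w array.

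Granulocytes, monocytes and lymphocytes are made and released at different rates, and a bulk sample of blood reflects both the proportions of these cells and the RNA in each of them. Neutrophils fill their granules in the bone marrow in a fixed order, in which the secondary granule proteins appear after the primary granule proteins and before release into blood. Interferons induce a shared set of genes through response elements in their promoters, among them large GTPases and antiviral enzymes. In these bulk samples, fewer cells of a type and less RNA per cell cannot be told apart.

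At 8 w, 1599 of the 13703 genes tested (11.7%) were higher than at 0 w and 1935 (14.1%) were lower, by limma with Benjamini-Hochberg adjustment over all 22831 probes tested. By probe, 2300 (10.1%) were higher and 3209 (14.1%) were lower. Among genes past the threshold, 583 were higher and 243 lower by at least 2-fold, and among probes past it, 835 and 716. Without the test the order was the other way, with 1068 probes higher and 1525 lower by at least 2-fold. All 1599 higher genes and all 1935 lower genes kept their direction on each of the 2 slides. The log2 change tested is the mean of the changes on the 2 slides, so that passing the test nearly fixes this agreement. These counts were relative to a median log2 change of -0.18 over all probes tested, and the share of changed probes that were higher moved with the scaling. It was 41.7% as given, 54.2% when each array was centred on its median, 53.6% after quantile normalization, 76% under normexp, which is another background correction, and 23.8% with no scaling. Whether rises or falls were the more numerous thus depended on the processing. Under normexp 373 of the higher genes and 115 of the lower genes stayed past the threshold, and 1595 and 1935 kept their sign. The number of lower probes was 1828 without DBA/2 8 w replicate 2, 1952 without DBA/2 0 w replicate 1 and 2096 without DBA/2 0 w replicate 2.

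The median change and the balance of rises and falls differed between levels of expression. When genes were split by mean signal into 4 equal ranges, in the lowest range 145 of 3426 were higher and 130 were lower, and the median log2 change was -0.24. In the highest range 722 of 3426 were higher and 657 were lower, and the median log2 change was -0.06. Rises thus outnumbered falls in the lowest and highest ranges. In the ranges between them falls were the more numerous, with 309 higher and 440 lower in the second and 423 and 708 in the third. Under normexp the medians of the lowest and highest ranges were -0.06 and -0.05. Dim probes thus sat below the bright ones in the values as given, and small falls of dim genes depend on how background is removed.

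**Figure D1:**
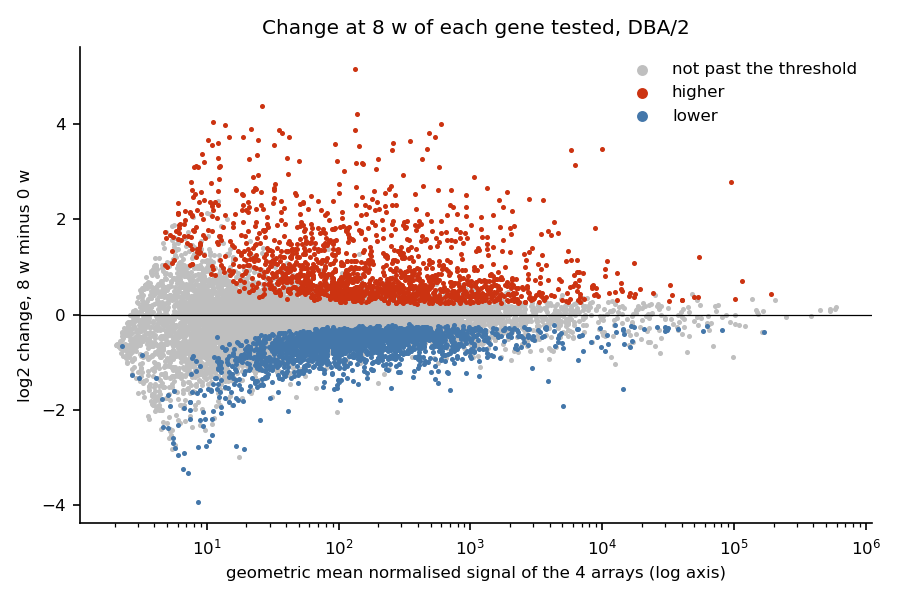
Each point is 1 of the 13703 genes tested, with the geometric mean normalised signal of the 4 arrays on the x axis (log scale) and the log2 change at 8 w on the y axis. Red points were higher (1599 genes), blue points lower (1935 genes) and grey points not past the threshold. Of the genes past the threshold, 583 lie at or above a 2-fold rise and 243 at or below a 2-fold fall.

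Genes of neutrophil secondary granules were among the largest rises. Ngp, which encodes neutrophilic granule protein, had signals of 31.2 and 32.4 at 0 w and 618 and 564 at 8 w. Its log2 change of 4.21 ± 0.25 (SE, adjusted p = 3.17e-06) was the largest among the ranked genes that were well above background on all 4 arrays. The ranks leave out complement and interferon genes that the study named. Camp, the cathelicidin precursor, had signals of 125 and 135 at 0 w and 1853 and 1798 at 8 w, a 14.1-fold rise. Ltf, which encodes the iron-binding protein lactoferrin, had signals of 97.1 and 99.6 at 0 w and 1369 and 1090 at 8 w, a 12.4-fold rise, and its other probe gave a log2 change of 3.66. In all 3 genes the arrays of a week lay close together and far from those of the other week. Lcn2, which encodes the siderophore-binding lipocalin 2, was not well above background on either 0 w array and had signals of 171 and 137 at 8 w, so that it was at least 11.2-fold higher.

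The promoters of Ngp and Ltf are shown because C/EBP factors are known to drive secondary granule genes. Capitals mark each match to TTGCNNAA, a C/EBP-type motif, on either strand. The windows run 5′ to 3′ along the gene from 250 bases before to 50 bases after the transcript start, are taken from RefSeq on GRCm38.p6 and lie at chr9:110419558-110419857 (plus strand) for Ngp and at chr9:111019042-111019341 (plus strand) for Ltf.
Ngp: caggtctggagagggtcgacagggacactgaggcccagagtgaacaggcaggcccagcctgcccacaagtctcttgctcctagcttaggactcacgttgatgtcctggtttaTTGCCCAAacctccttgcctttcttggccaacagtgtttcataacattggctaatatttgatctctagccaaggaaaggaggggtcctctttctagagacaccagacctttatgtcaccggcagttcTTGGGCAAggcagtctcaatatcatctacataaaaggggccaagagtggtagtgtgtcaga
Ltf: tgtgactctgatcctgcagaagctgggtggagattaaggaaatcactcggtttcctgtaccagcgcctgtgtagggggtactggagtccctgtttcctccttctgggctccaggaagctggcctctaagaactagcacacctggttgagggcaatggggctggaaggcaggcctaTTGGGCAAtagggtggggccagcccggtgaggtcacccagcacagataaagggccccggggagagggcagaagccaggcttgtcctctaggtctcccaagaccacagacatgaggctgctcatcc
Ngp held 2 matches, 138 and 11 bases before the transcript start, and Ltf held 1, 75 bases before it. A match is a string of letters and not a measured binding site. Of the 11 tested secondary granule genes with a promoter window, 5 (45.5%) held the motif, compared with 12.2% of the 27025 windows of all genes and 10.9% of the 10880 windows of genes tested here. The share was 18.8% for the mature neutrophil list and 26.7% for the core T cell list, of which 0 members rose, over 16 and 15 windows.

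Of the 12 secondary granule genes tested, 12 rose and 0 fell, with a median log2 change of 2.70, against a median of -0.16 and 11.7% higher over all genes tested. Of the 10 that were well above background on all 4 arrays, 10 rose, and Olfm4, the other member with a probe, was too dim to be tested. Anxa1, which encodes annexin A1, rose by 2.88, the collagenase gene Mmp8 by 2.52, and haptoglobin (Hp) from signals of 1241 and 1177 to 6467 and 6458. The smallest rise was that of the chitinase-like gene Chil3, with a log2 change of 0.63. Primary granule genes, which are transcribed earlier in the bone marrow, were mostly dim in blood. Of 7 with a probe, 3 (Elane, Fcnb and Bpi) were too dim to be tested and 1 of the 4 tested rose, namely the myeloperoxidase gene Mpo, with signals of 16.1 and 28.8 at 0 w and 45.5 and 49.95 at 8 w.

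Genes of mature neutrophils rose as well, 17 of 18 tested and 0 lower, with a median log2 change of 2.30. S100a8, a subunit of calprotectin, had signals of 2157 and 2082 at 0 w and 19050 and 18090 at 8 w, and its partner S100a9 rose 6.85-fold. The chemokine receptor gene Cxcr2, which guides neutrophils out of the marrow, had signals of 350 and 326 at 0 w and 1609 and 1613 at 8 w. The G-CSF receptor gene Csf3r rose by 1.97, the formyl peptide receptor genes Fpr1 and Fpr2 by 2.15 and 2.56, and the gelatinase gene Mmp9 by 2.15. The decoy receptor gene Il1r2 had signals of 32.1 and 31.5 at 0 w and 305 and 286 at 8 w. Stfa3 gave a log2 change of -0.47 and did not pass the test.

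Genes of small protease inhibitors and related proteins gave some of the largest changes. The stefin genes Stfa2l1, Cstdc6 and Cstdc4, which encode cysteine protease inhibitors and lie together on chromosome 16, rose by 3.55, 3.27 and 3.26. Cstdc6 had signals of 143 and 134 at 0 w and 1368 and 1300 at 8 w, and its 2 other probes gave log2 changes of 3.08 and 3.47. The whey acidic protein genes Wfdc21 and Wfdc17, neighbours on chromosome 11, rose by 3.87 and 3.74. The stefin genes are near-identical copies whose probes may share targets, so that their values are not independent of each other.

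**Figure D2:**
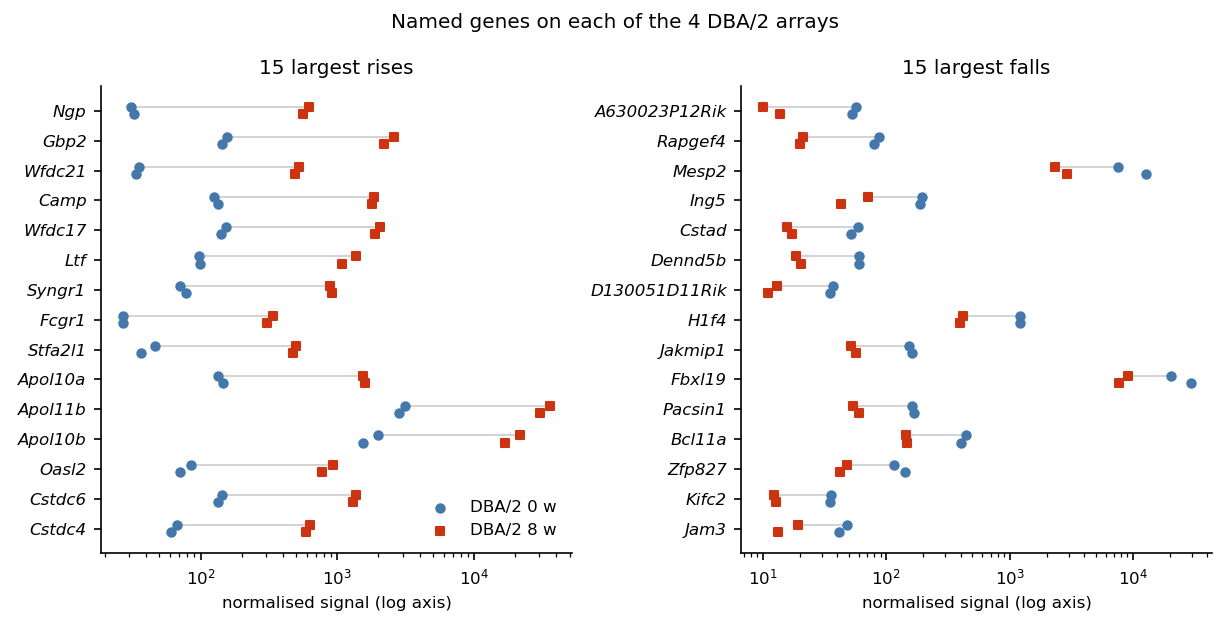
Normalised signals (log axis) of the 15 largest rises and the 15 largest falls among ranked genes well above background on all 4 arrays. The ranks leave out complement and interferon genes that the study named. Blue circles are the 0 w arrays, red squares the 8 w arrays, the upper mark of each pair is replicate 1, and a grey line joins the replicate 1 arrays. In the left panel every 8 w mark lies far to the right of every 0 w mark of its gene, and in the right panel most falling genes have 8 w signals under 100.

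Of 14 classical monocyte genes tested, 11 were higher and 0 lower, with a median log2 change of 1.18. Ccr2, the receptor that brings monocytes out of the marrow, had signals of 207 and 212 at 0 w and 731 and 792 at 8 w. Lyz2, which encodes lysozyme, rose by 1.21, and Cd14, the lipopolysaccharide co-receptor, by 2.24. Irf8 and Vcan, with log2 changes of -0.20 and 0.06, did not pass the test. Of 15 nonclassical monocyte genes, 8 rose, including Treml4 by 0.92 and Nr4a1 by 0.68, and 1, Pou2f2, fell by 0.48. Under normexp 8 of the classical and 2 of the nonclassical genes stayed higher.

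Myeloid cells sense antibody-coated particles through Fc receptors. Fcgr1, the high-affinity IgG receptor gene, had signals of 27.0 and 26.9 at 0 w and 341 and 305 at 8 w, an 11.96-fold rise. Of 15 Fc receptor and ITAM kinase genes tested, 10 rose, among them Fcgr3 by 2.07, Fcgr4 by 1.91 and the adaptor gene Tyrobp by 1.86. The 2 that fell, Fcer2a by 0.94 and Fcrla by 0.94, are known as B cell genes. Of 18 paired myeloid receptor genes, 13 rose and 1 fell, with a median log2 change of 1.76. The inhibitory receptor gene Pirb had signals of 2580 and 2539 at 0 w and 8450 and 8308 at 8 w.

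C-type lectins on myeloid cells recognise fungal cell wall sugars, among them the mannans of CAWS, and signal through Card9. Of 15 tested genes of these lectins and their pathway, 10 rose and 2 fell, and under normexp 5 were higher and 1 lower. Clec4e, the Mincle gene, had signals of 53.1 and 46.5 at 0 w and 490 and 420 at 8 w, the largest rise of the list with a log2 change of 3.19. Clec7a, the dectin-1 gene, had signals of 815 and 792 at 0 w and 3942 and 3767 at 8 w, a log2 change of 2.26. Clec4d rose by 1.51, and the kinase gene Syk, at 0.21, did not pass the test. Malt1, a paracaspase of the pathway that lymphocytes also use, fell by 1.23, from signals of 174 and 157 to 77.8 and 63.5, and under normexp this fall did not pass. Of 20 Toll-like receptor pathway genes, 9 rose, 3 fell and 8 did not pass the test, and under normexp 3 were higher. Tlr2 rose by 1.63, the adaptor gene Myd88 by 1.81 and Tlr4 by 2.29, while Cd180, the B cell homologue of Tlr4, fell by 1.18.

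Of 16 interleukin-1 and inflammasome genes, 10 rose and 0 fell, and under normexp 4 were higher. Il1b itself had signals of 792 and 752 at 0 w and 4683 and 4500 at 8 w, its natural antagonist gene Il1rn rose by 1.95, and the inflammatory caspase genes Casp1 and Casp4 rose by 1.22 and 2.63. Nlrp3, at -0.27, did not pass the test. Of 20 oxidative burst genes, 14 rose and 3 fell, and under normexp 6 were higher. Those that rose include the NADPH oxidase subunits Cybb by 0.93, Cyba by 0.91 and Ncf4 by 0.99. Of 27 glycolysis and hypoxia genes, 17 rose and 1 fell, led by the lactate transporter gene Slc16a3 with signals of 153 and 170 at 0 w and 596 and 593 at 8 w. Their median log2 change was 0.56, and Gapdh, which is often taken as a reference gene, rose by 0.65. Under normexp 4 of the 17 glycolysis genes stayed past the threshold.

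Strong single rises were also seen in Acod1, Hdc and Prg2. Acod1, whose enzyme makes the antimicrobial metabolite itaconate, was at least 9.41-fold higher, with signals of 5.77 and 5.81 at 0 w and 123 and 119 at 8 w. Hdc, the histamine-making enzyme, had signals of 123 and 102 at 0 w and 918 and 800 at 8 w. Prg2, the eosinophil major basic protein gene, was at least 3.48-fold higher. Of 17 eosinophil and basophil genes tested, 6 rose and 1 fell, and Epx, a defining eosinophil gene, was not tested because it was dim. Under normexp 1 of the 6 stayed higher.

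Interferon-induced genes outside those the study named formed the other large group of rises. Gbp2, a guanylate-binding protein, had signals of 157 and 144 at 0 w and 2619 and 2192 at 8 w, a log2 change of 3.99 ± 0.12 (SE, adjusted p = 9.85e-08). Of 14 interferon-inducible GTPase genes tested, 12 rose and 0 fell, with a median log2 change of 1.61. Gbp3 had signals of 107 and 106 at 0 w and 425 and 426 at 8 w, and Irgm1, an immunity-related GTPase, had 210 and 205 at 0 w and 752 and 670 at 8 w. Gbp4 and Gbp9, at 0.23 and -0.08, did not pass the test, so that members of the list gave unequal changes. The GTPase genes are multigene families, and probes of close copies may share targets.

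Stretches of 8 GTPase promoters are shown because 12 of the 14 tested members rose and these 8 carry the same motif. Capitals mark matches to an interferon-stimulated response element type motif, read as GAAA, any 2 bases and GAAA, on either strand (on the other strand it reads TTTC, any 2 bases and TTTC, and overlapping matches run together), within stretches of 50 bases. Each is read 5′ to 3′ along the gene from RefSeq on GRCm38.p6.
Gbp2: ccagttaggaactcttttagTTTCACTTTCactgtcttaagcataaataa
Gbp3: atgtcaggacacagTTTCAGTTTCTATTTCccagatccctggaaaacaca
Gbp5: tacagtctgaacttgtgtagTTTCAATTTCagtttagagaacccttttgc
Gbp7: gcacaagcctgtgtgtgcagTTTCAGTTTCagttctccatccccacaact
Igtp: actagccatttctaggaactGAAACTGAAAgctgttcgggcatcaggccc
Irgm1: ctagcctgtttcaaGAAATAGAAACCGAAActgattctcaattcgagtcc
Irgm2: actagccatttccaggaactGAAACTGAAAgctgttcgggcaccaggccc
Tgtp1: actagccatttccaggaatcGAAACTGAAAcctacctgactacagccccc
These stretches lie at chr3:142620584-142620633 (Gbp2, plus strand), chr3:142559985-142560034 (Gbp3, plus strand), chr3:142496749-142496798 (Gbp5, plus strand), chr3:142530263-142530312 (Gbp7, plus strand), chr11:58199502-58199551 (Igtp, plus strand), chr11:48871415-48871464 (Irgm1, minus strand), chr11:58214893-58214942 (Irgm2, plus strand) and chr11:48992294-48992343 (Tgtp1, minus strand). The match began between 24 bases (Irgm1) and 165 bases (Gbp5) before the transcript start. The stretches of Igtp and Irgm2 are nearly the same, as these genes are close copies. Of the 9 tested GTPase genes with a window, 8 held the motif and Ifi47 did not, compared with 3.99% of the windows of all genes. Another motif, TTCNNNGAA, called the gamma-activated site, was in 5 of these 9 (55.6%), compared with 9.55% of all genes. The part of either motif in the rises was not tested. Among the 1278 genes with a window that rose, 7.51% held the GAAA motif, against 3.90% of the 10880 genes tested and 3.11% of the 1544 that fell. Among the 457 that rose at least 2-fold, 13.1% held it.

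Antiviral genes of the interferon response rose in 21 of 26 tested and fell in 0, with a median log2 change of 1.57. Oasl2, a relative of the oligoadenylate synthetases, had signals of 85.5 and 70.3 at 0 w and 925 and 772 at 8 w. Ifit3 had signals of 75.2 and 58.5 at 0 w and 585 and 515 at 8 w, and the deubiquitinase-like gene Usp18 rose by 1.98. Isg15, a ubiquitin-like modifier, rose by 1.61, from signals of 512 and 450 to 1478 and 1456. Mx1 and Mx2, at 0.73 and 0.55, did not pass the test. The GAAA motif of the GTPase promoters was present in 10 of the 16 antiviral genes with a window (62.5%). Under normexp 9 of the 12 GTPase genes and 14 of the 21 antiviral genes stayed higher.

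Apolipoprotein L genes on chromosome 15 were among the brightest of the large rises. Apol11b had signals of 3135 and 2836 at 0 w and 36240 and 30430 at 8 w, Apol10b had 1988 and 1529 at 0 w and 21870 and 16920 at 8 w, and Apol10a had 133 and 146 at 0 w and 1534 and 1583 at 8 w. Their log2 changes of 3.48, 3.46 and 3.48 were alike, and the 3 probes lie within one cluster of gene copies, so that shared targets are possible. Genes of MHC class I presentation rose less. Of 20 tested, 10 were higher and 0 lower, with a median log2 change of 0.31, led by the immunoproteasome subunit gene Psmb9 at 1.25 and the class I gene H2-D1 at 1.14. B2m, the shared light chain, had signals of 11970 and 11860 at 0 w and 26250 and 24680 at 8 w. Another of its probes gave a log2 change of 1.00, and a dimmer one gave -0.02.

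The chemokine genes Cxcl9 and Cxcl10, known as interferon-γ targets, were not well above background on either 0 w array and were at least 1.96-fold and 3.32-fold higher at 8 w. Of 20 chemokine ligand genes tested, 8 rose and 0 fell, and 2 stayed higher under normexp. Serpina3g, a protease inhibitor of activated lymphocytes and macrophages, had signals of 175 and 168 at 0 w and 1172 and 1058 at 8 w. Socs3, a feedback inhibitor of cytokine receptors, rose by 1.85, from signals of 893 and 882 to 3279 and 3116. Of 21 tested JAK-STAT and Socs genes, 9 rose and 1, Jak1, fell by 0.48, and under normexp 2 were higher.

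**Figure D3:**
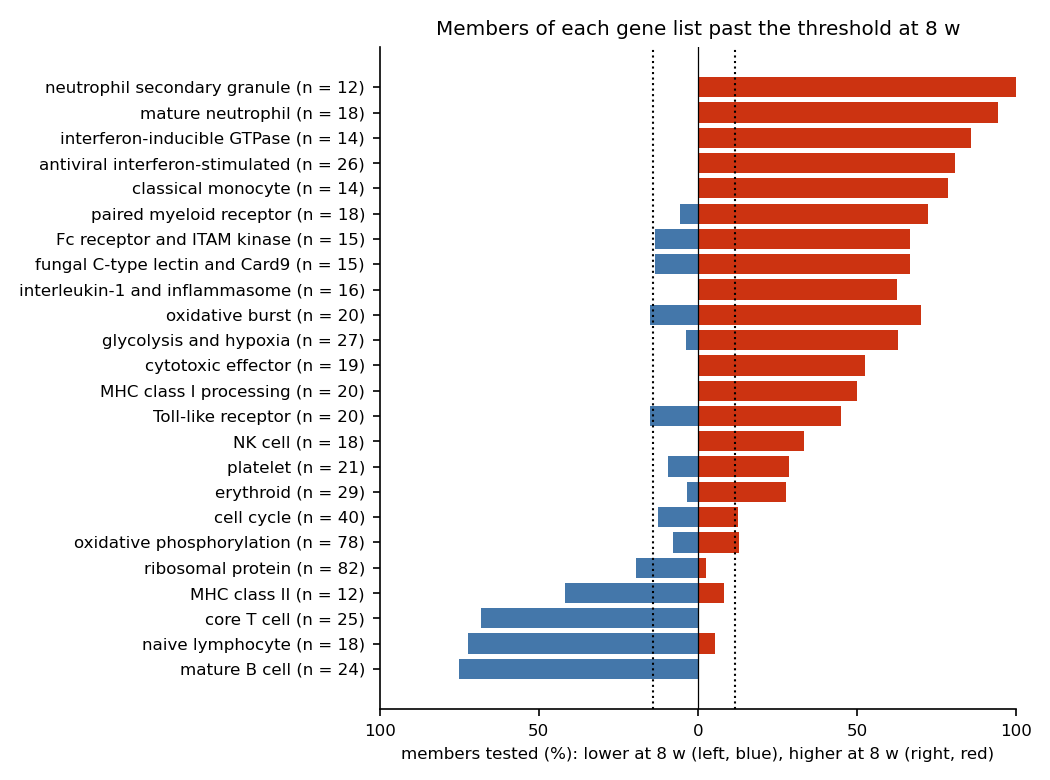
Share of the tested members of 24 gene lists that were higher (red, right) or lower (blue, left) at 8 w, with the number tested after each name. Dotted lines mark the shares over all genes tested, 11.7% higher and 14.1% lower. Neutrophil and interferon lists lie far to the right, T cell, naive lymphocyte and B cell lists to the left, and the bars of the oxidative phosphorylation and cell cycle lists end near or short of the dotted lines.

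Genes of cytotoxic cells rose modestly. Of 19 cytotoxic effector genes tested, 10 were higher and 0 lower, with a median log2 change of 0.61. Gzmb, which encodes granzyme B, had signals of 50.9 and 46.6 at 0 w and 134 and 115 at 8 w, and Prf1, the perforin gene, rose by 0.78. Of 18 NK cell genes, 6 were higher and 0 lower, including the receptor gene Ncr1 by 0.70. These were small changes, and under normexp 2 of the cytotoxic and 1 of the NK cell genes stayed higher.

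Genes of T cells were lower. Of 25 core T cell genes tested, 17 fell and 0 rose, with a median log2 change of -0.58, against 14.1% lower and a median of -0.16 over all genes. Bcl11b, a transcription factor needed for T cell identity, had signals of 238 and 226 at 0 w and 88.8 and 79.9 at 8 w, and its other probe gave -1.37. Cd6, a T cell surface receptor, had signals of 1368 and 1475 at 0 w and 606 and 609 at 8 w. Cd3d, an invariant chain of the T cell receptor, had signals of 1296 and 1323 at 0 w and 788 and 800 at 8 w. Cd4 and Cd3e, with log2 changes of -0.33 and -0.26, did not pass the test. With each array centred on its median 14 core T cell genes were lower, after quantile normalization 13, under normexp 6, and in a fit of the 4 arrays alone 5.

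Of 18 genes of naive, recirculating lymphocytes, 13 were lower and 1 higher, with a median log2 change of -0.76. Foxo1, a transcription factor that keeps lymphocytes quiescent, had signals of 905 and 829 at 0 w and 356 and 323 at 8 w. Bach2, Lef1 and Tcf7, transcription factors of naive cells, fell by 1.31, 1.20 and 1.06. The homing receptor gene Ccr7 had signals of 635 and 639 at 0 w and 390 and 410 at 8 w. The count of lower members was 13 after median centring and after quantile normalization, and 8 under normexp.

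B cell genes fell as well, with 18 of 24 lower, 0 higher and a median log2 change of -0.70. Pax5, which maintains B cell identity, had signals of 175 and 161 at 0 w and 69.9 and 60.3 at 8 w, and Cd79b, a chain of the B cell receptor, had 6692 and 6171 at 0 w and 4139 and 3825 at 8 w. Cd79a, the partner chain, gave a log2 change of 0.50 that did not pass the test, with 8 w signals of 66.1 and 192 on the 2 arrays. The plasma cell gene Jchain, which links antibody subunits, fell by 0.86, while Xbp1, a factor of secretory cells, rose by 1.15. With normexp, as in the 4 arrays alone, 5 of the B cell genes were lower.

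Among MHC class II genes, 5 of 12 were lower and 1 higher, with a median log2 change of -0.06. Ciita, the master regulator of class II transcription, had signals of 714 and 636 at 0 w and 364 and 316 at 8 w. H2-DMb2 and H2-Oa, which act in peptide loading, fell by 0.83 and 0.66. The classical chain genes H2-Aa, H2-Ab1 and H2-Eb1, at -0.14, 0.03 and 0.18, did not pass the test. The 1 member that rose was the protease gene Ctss, by 1.15, which was also counted among the monocyte genes.

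Single falls were smaller than single rises. The 15 largest among ranked genes well above background on all 4 arrays lay between log2 changes of -2.22 (A630023P12Rik) and -1.48 (Jam3). Of these, 2, H1f4 and Bcl11a, stayed past the threshold under normexp. H1f4, which encodes a linker histone, had signals of 1222 and 1207 at 0 w and 419 and 396 at 8 w. Bcl11a, a transcription factor of B cells and plasmacytoid dendritic cells, had signals of 440 and 404 at 0 w and 145 and 146 at 8 w, and its 2 other probes gave smaller falls of 0.55 and 0.53. Rapgef4, a guanine nucleotide exchange factor gene, had signals of 87.6 and 79.0 at 0 w and 21.4 and 19.9 at 8 w. Pacsin1, an endocytic adaptor gene, fell by 1.53, and another of its probes by 1.69.

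Some of these falls depended on single arrays. Mesp2 had signals of 7550 and 12780 at 0 w and 2344 and 2894 at 8 w, and it passed in 1 of the 4 fits that left out a sample, the one without DBA/2 0 w replicate 1. Fbxl19 and Jam3 passed in 0 of these 4 fits, and another probe of Fbxl19 gave a log2 change of 0.08. Ing5 and D130051D11Rik each passed only in the fit without DBA/2 8 w replicate 1. The other 10 largest falls and all 15 largest rises passed in each of the 4 fits. Alb, the albumin gene, was at least 4.00-fold lower, from signals of 25.0 and 44.8 at 0 w to 1.80 and 2.71 at 8 w. The hepatocyte list had 0 of 26 members higher and 5 (19.2%) lower, against 14.1% over all genes. Of the 26, 15 were below background on all 4 arrays, 2 of the 5 falls were in members well above background on all 4, and under normexp 0 were lower. The list had summed signals of 777 and 1183 at 0 w and 570 and 998 at 8 w.

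Of 82 ribosomal protein genes, 2 were higher and 16 (19.5%) lower, the largest fall being that of Rpl18 by 0.37, and the count of lower genes was 4 after median centring, 10 after quantile normalization and 0 under normexp. Of 78 oxidative phosphorylation genes, 10 were higher and 6 lower. Of 40 cell cycle genes, 5 were higher and 5 lower. Of 21 platelet genes, 6 were higher and 2 lower, and of 29 erythroid genes, 8 were higher and 1 lower. These shares of higher genes lay above the 11.7% over all genes, and under normexp 1 platelet and 1 erythroid gene were higher. Hba-a1, an α-globin gene, had signals of 578800 and 547400 at 0 w and 617200 and 648900 at 8 w. Medians of these 5 lists lay between -0.17 (cell cycle) and 0.14 (erythroid).

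Genes of tissue macrophages and of iron handling, which overlap in macrophages that clear red cells, were in part higher. Of 14 tissue macrophage genes tested, 8 rose and 0 fell, and 6 others with a probe were too dim to test. Hmox1, which degrades heme, had signals of 77.9 and 76.6 at 0 w and 271 and 263 at 8 w, and the iron exporter gene Slc40a1 had 215 and 183 at 0 w and 828 and 652 at 8 w. Steap4, a metalloreductase gene, was at least 4.25-fold higher. Of 9 genes of alternative macrophage activation, 5 rose and 0 fell, and Retnla, which encodes the secreted protein Relmα, had signals of 77.5 and 66.9 at 0 w and 351 and 354 at 8 w. Arg1 was not well above background on either 0 w array. Under normexp 3 of the tissue macrophage and 3 of the alternative activation genes stayed higher.

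Where 8 w stood among the later weeks was tested against its neighbours, with the same fit. The comparisons with 0 w, 4 w and 9 w share the 8 w arrays. Against 4 w, 554 genes were higher at 8 w and 706 lower (9.20% of genes tested in all), and against 9 w, 1162 were higher and 1490 lower (19.4%). The first of these rests on every array, since by probe 1942 differed from 4 w and 673 to 992 did when any 1 of the 4 arrays was left out, the lowest without DBA/2 4 w replicate 2 and the highest without DBA/2 4 w replicate 1, with 742 and 721 without DBA/2 8 w replicate 1 and replicate 2. Of the 12 secondary granule genes, 11 were higher at 8 w than at 4 w and 10 higher than at 9 w. Camp had signals of 320 and 307 at 4 w and 356 and 374 at 9 w, all below its 8 w signals of 1853 and 1798. Of the 14 GTPase genes, 11 were higher than at 4 w and 10 than at 9 w.

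Syngr1, which encodes a synaptic vesicle protein, gave another pattern over the weeks, each of which holds different mice. The source of this pattern was not tested. Its signals were 70.5 and 78.9 at 0 w, 1942 and 2014 at 2 w, 70.0 and 80.6 at 4 w, 888 and 916 at 8 w and 77.0 and 80.9 at 9 w. The 2 w and 8 w arrays were high and those of the other weeks alike low, and its other probe gave a log2 change of 3.42 between 0 w and 8 w. Apol11b also had higher signals at 2 w (19660 and 16640) and 8 w than at 4 w (9272 and 8075). It did not return to its 0 w level, and at 9 w, where Syngr1 was low, its signals were 17080 and 17070. Saa3, an acute phase gene, had signals of 3909 and 3871 at 4 w and 797 and 800 at 8 w, which was a log2 difference of -2.28 (adjusted p = 0.0197). Fos, an immediate early transcription factor, was lower at 8 w than at 4 w by 2.10, and the chemokine gene Ccl3 by 1.88.

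**Figure D4:**
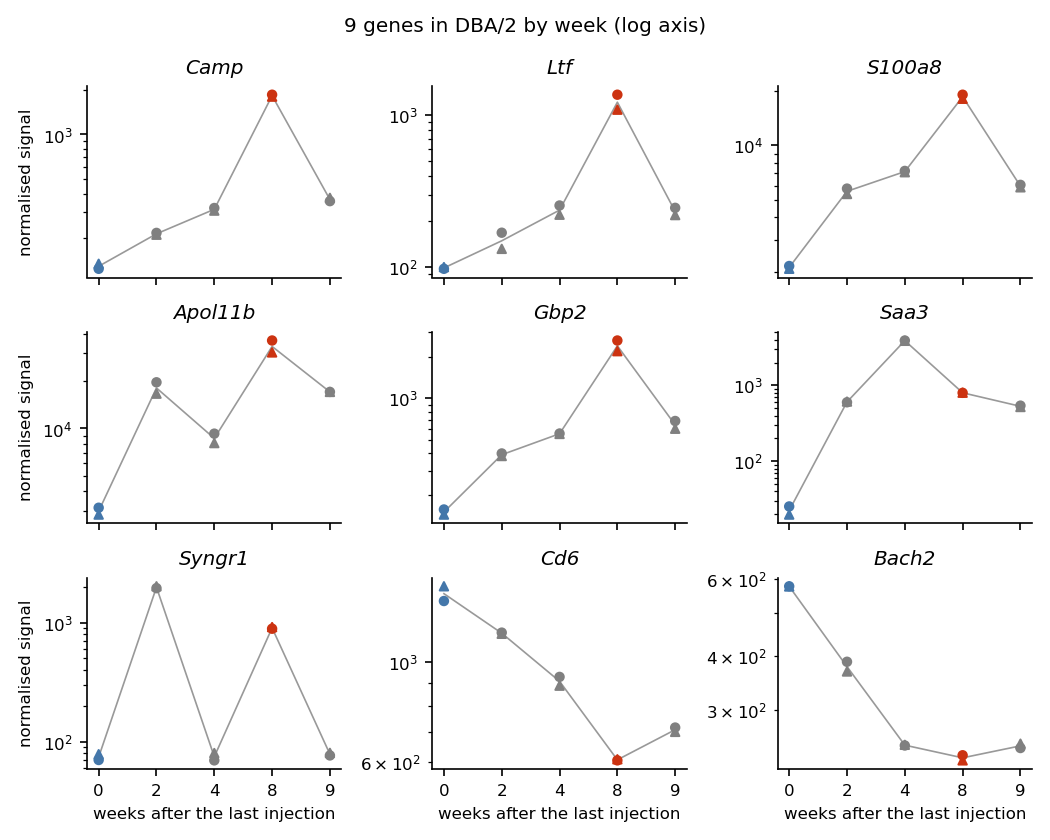
Normalised signals (log axis, with its own range in each panel) of 9 genes on the 10 DBA/2 arrays by week. Circles are replicate 1 and triangles replicate 2, blue marks 0 w and red marks 8 w, and the line joins the geometric means of different mice. Camp, Ltf, S100a8 and Gbp2 peak at 8 w, Saa3 peaks at 4 w, Syngr1 is high at 2 w and 8 w, and Cd6 and Bach2 are lower at every later week than at 0 w.

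In the 5 ranked genes with the largest differences from 9 w toward lower signals at 8 w, both 9 w arrays lay above both 8 w arrays. The second 9 w array was the higher. Synpo had signals of 727 and 552 at 8 w and 2450 and 41920 at 9 w, and 1700049J03Rik had 838 and 863 at 8 w and 2501 and 35410 at 9 w. That array, DBA/2 9 w replicate 2, had 1187 outlier spots, against 64 to 180 on the other 18 arrays. The part of these spots in the result was not tested. Without it, 2470 probes differed between 8 w and 9 w, against 4011 with it, and without DBA/2 9 w replicate 1 4638 did. Without DBA/2 8 w replicate 1 and replicate 2 the numbers were 2143 and 2011. The 9 w arrays also lay on other slides than the 8 w arrays, so that no slide holds both weeks.

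Male B6 mice on the same injection schedule allow the change to be set against that of another strain. B6 mice gave 1605 higher and 1605 lower genes at 8 w. The test of the difference between the strains, the DBA/2 change minus the B6 change, compares changes and not levels at 8 w. It found 1128 genes with a higher change in DBA/2 mice (8.23%) and 1331 with a lower one (9.71%). By probe 4025 differed, and under normexp 127 did. Of the 12 secondary granule genes, 12 rose in B6 mice too, and the difference between the strains passed in each direction for 3. Camp rose by 3.82 in DBA/2 mice. It also rose in B6 mice, where it was not well above background at 0 w (4.34 and 5.01) and had signals of 404 and 423 at 8 w, so that the size of that rise was not measured. S100a8 rose by 3.13 and 3.06, a difference of 0.07 that did not pass the test.

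Interferon-induced genes differed between the strains. Of the 14 GTPase genes, 12 changed more upward in DBA/2 mice and 0 less, and of the 26 antiviral genes, 18 more and 1 less. Gbp2 had B6 signals of 174 and 152 at 0 w and 307 and 269 at 8 w, a log2 change of 0.82 against 3.99 in DBA/2 mice. The B cell list also differed, with 17 of 24 genes changing more downward in DBA/2 mice and 1 more upward, and so did the erythroid list, with 18 of 29 more upward and 1 more downward. Of the erythroid genes, 20 were lower at 8 w in B6 mice. Of 10 cytotoxic effector genes that differed, all 10 were more upward in DBA/2 mice, and 9 of the 19 fell in B6 mice.

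The B6 arrays at 0 w and 8 w carried hepatocyte RNA, which the DBA/2 arrays of the comparison lacked or held at low level. Alb had B6 signals of 5593 and 5468 at 0 w and 2890 and 2591 at 8 w. The part of this RNA in the strain differences was not tested. Among ranked genes that every array of the 4 groups called well above background, the largest differences downward were those of Saa2 at -6.39, Mt2 at -3.97 and Saa1 at -2.98. Hepatocytes are known to express these genes. These genes rose in B6 mice, while in DBA/2 mice Saa2 had signals of 28.0 and 39.8 at 0 w and 36.1 and 19.3 at 8 w.

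**Figure D5:**
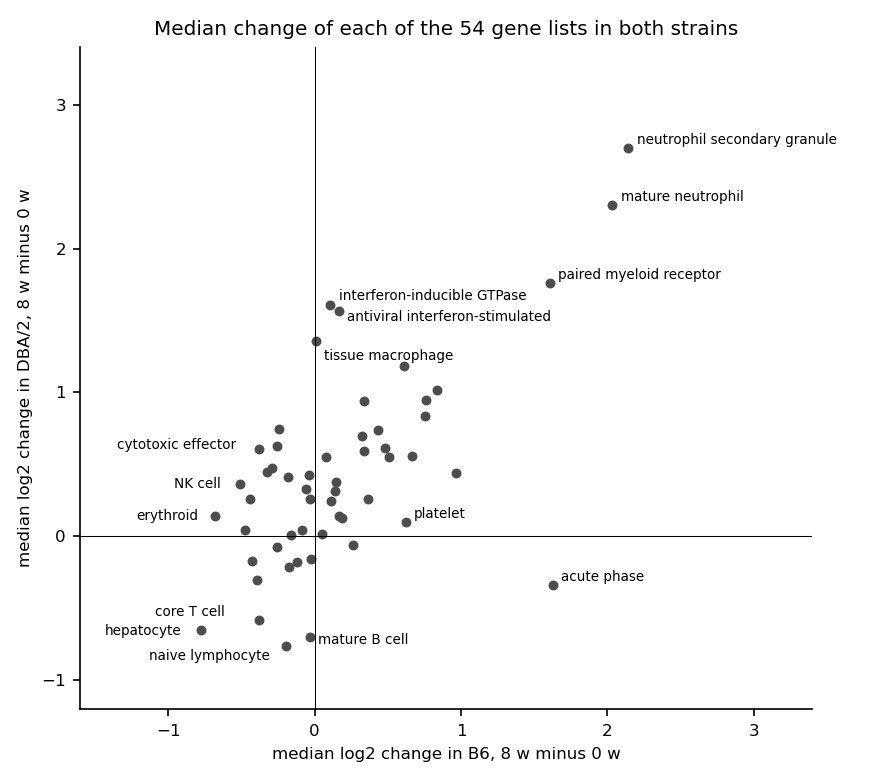
Median log2 change at 8 w of each of the 54 gene lists in B6 mice (x axis) and in DBA/2 mice (y axis), 1 point a list. Neutrophil lists lie high on both axes, the interferon-inducible GTPase and antiviral lists lie high in DBA/2 mice (1.61 and 1.57) and near 0 in B6 mice (0.11 and 0.17), and the acute phase list lies high in B6 mice only (1.63, against -0.34).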

How the data were processed

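Leukocyte RNA of 18 samples in 10 groups was measured on 19 arrays. The authors deposited, for each array, the Agilent Feature Extraction 9.5.3.1 output, in which the processed signal is an intensity after background subtraction, spatial detrending and a surrogate for very low values, not normalized between arrays. The deposited value table holds the same intensity per probe. Groups came from the sample titles.

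Control spots and outlier spots were left out, saturated spots kept, and the spots of a probe averaged. The log2 signals of an array were scaled by their 75th percentile among 11536 probes that every one of the 19 arrays called well above background. Normalised signals are printed at a common 75th percentile of 374.41. Of 41174 probes, 22831 passed the filter (well above background in 2 or more of 18 samples) and entered a limma 3.58.1 fit over all 18 samples in R 4.3.3 (group means, eBayes, 8 residual and 1.37 prior degrees of freedom), the 2 arrays of B6 0 w replicate 2 averaged, with Benjamini-Hochberg adjustment and a threshold of 0.05. A gene is its brightest probe over the samples. A probe not well above background on either array of a week has only a bound there, and the fold is then given as at least that of the bright week's mean over the higher of the dim signal and the lowest signal well above background. Probes were named by accession (24375), by symbol or synonym (6301 and 2426) or as in the files (8072). Chromosomes of probes follow the files' mm8 positions.

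The replicate numbers pair the samples, since the file headers put replicate 1 of DBA/2 0 w, 2 w, 4 w and 8 w on one slide and replicate 2 on another, and the deviations of 0 w and 8 w from their means correlated with 0.371 over probes, and those of 0 w and 2 w, 0 w and 4 w, 2 w and 8 w and 4 w and 8 w with 0.335 to 0.407. Named genes are the 15 largest rises and falls well above background on all 4 arrays and apart between weeks, the 5 largest bounds each way, up to 5 members of each list, and the 5 largest differences each way from 4 w, from 9 w and between strains. The 54 lists come from general knowledge. Members, lists and rules were chosen with earlier results of these data known. Complement and interferon genes that the study named were left out of the ranks, and some list members are not reported here.

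Alternatives were normexp (offset 50), quantile and median scaling, the value table unscaled, a floor of 10, other filters, slide or replicate blocks, fewer samples, outlier spots kept, leaving out each sample, a 2-fold change in place of the test, and averaging the probes of each gene. The filter at all 4 arrays was chosen after seeing the data. The script was tested on simulated data. Plots used Python 3.11.15, pandas 2.3.3 and matplotlib 3.10.9.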

Additional observations from a re-analysis of the deposited data

Results flagged for a closer look

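No group holds 4 or more samples, so single samples far from their group could not be looked for in this way. The change at 8 w was compared between DBA/2 and B6 mice by limma (the difference itself tested, with Benjamini-Hochberg adjustment over all probes). Of 48 genes named by the size of their DBA/2 change or of this strain difference, 33 differed. Of these, 13 were higher and 20 lower in DBA/2 mice. Genes named by the strain difference were picked on the value tested, so that 33 of 48 is not a rate of difference. Over all 13703 genes tested, 8.23% were higher and 9.71% lower in DBA/2 mice. The values below are the DBA/2 log2 change minus the B6 log2 change. Of the largest rises, Wfdc17, Stfa2l1, Cstdc6 and Cstdc4 gave 0.36, 0.31, 0.07 and 0.05, which did not pass the test. Ngp and Ltf gave -1.03 and -1.10, which did not pass either.

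Genes that changed more upward in DBA/2 mice included Gbp2 (3.171), Oasl2 (2.601), Apol11b (2.805), Apol10b (2.759), Apol10a (2.514), Fcgr1 (1.929), Wfdc21 (2.205) and Myof (2.741). At 8 w Oasl2 was alike in DBA/2 mice (925 and 772) and B6 mice (852 and 792). Wfdc21 was then higher in B6 mice (793 and 746, against 522 and 490). The others of these genes had higher signals in DBA/2 mice at 8 w, such as Gbp2 with 2619 and 2192, against 307 and 269. Syngr1 gave 4.375, since it rose from 0 w to 8 w in DBA/2 mice and fell in B6 mice. Its B6 signals were 1326 and 1383 at 0 w and 783 and 796 at 8 w, near the DBA/2 8 w signals of 888 and 916. Fbxo28 (3.346), Olfr1507 (2.945) and Gjd3 (2.91) had B6 0 w arrays that lay far apart, with Fbxo28 signals of 179 and 518 there. For 1810046K07Rik the difference of 4.078 rested on B6 0 w replicate 2 and 1 B6 8 w array, since its spots on the other arrays of these groups were dropped as outliers.

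Camp gave -2.654, but its B6 0 w signals of 4.34 and 5.01 were not well above background, so that the size of this difference was not measured. The acute phase genes Saa2 (-6.39) and Saa1 (-2.981) and the metallothionein genes Mt2 (-3.969) and Mt1 (-2.345) rose in B6 mice, and Alb (-2.905) and Acot4 (-2.546) also differed. Alb had signals of 5593 and 5468 in B6 mice at 0 w, so that these values lie beside hepatocyte RNA in the B6 arrays, and its part in them was not tested.

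Many genes with the largest falls in DBA/2 mice had B6 changes that were less negative or above 0. The differences were -1.099 for A630023P12Rik, -2.248 for Rapgef4, -2.658 for Cstad, -2.308 for Dennd5b, -1.877 for D130051D11Rik and -1.597 for H1f4. They were -1.151 for Jakmip1, -1.473 for Pacsin1, -1.968 for Bcl11a, -1.1 for Zfp827, -2.042 for Kifc2 and -3.808 for Jam3, whose fall passed in 0 of the 4 fits that left out a sample. The fitted value of -6.371 for 4930512B01Rik has no measured size, since the gene was not well above background on the DBA/2 8 w arrays (5.53 and 9.58) or the B6 0 w arrays (10.45 and 7.34). The same holds in part for Myof and Alb, which lacked a DBA/2 signal well above background, Myof at 0 w and Alb at 8 w.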

How the results depend on the processing

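Of the 529 genes named or listed, none that was past the threshold changed sign under the alternatives run, but the balance of higher and lower probes turned, with 41.7% of changed probes higher as reported, 54.2% with median centring, 53.6% with quantile normalization and 76% with normexp. Under normexp 472 probes were higher and 149 lower (2300 and 3209 as reported), 45 differed from 4 w (1942), 2602 from 9 w (4011) and 127 between the strains (4025), and 178 list members changed (485). With no filter on dim probes the counts were 1529, 1849, 408, 1495 and 1868. The 4 arrays alone gave 726 higher and 541 lower probes and 214 list members, and DBA/2 samples alone gave 620 against 4 w and 2460 against 9 w. A 2-fold change without a test gave 1068 higher, 1525 lower, 1049 against 4 w, 2444 against 9 w and 244 list members. The value table without scaling gave 1400 higher probes and 13920 different between the strains, and a slide block 2479 different between the strains. Leaving out each sample in turn gave 1572 to 1911 higher, 1828 to 2325 lower, 673 to 992 against 4 w, 2011 to 4638 against 9 w, 2776 to 3269 between the strains and 384 to 410 list members, and left 1 array in a group, which was assumed to vary like the others. The cause of these moves was not tested.

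The replicate block, which pairs the arrays of a slide in the main comparison, gave 2765 higher and 4095 lower probes, and 3158 against 4 w, and it took none of the 529 genes named or listed across the threshold. Under normexp 202 of these 529 kept their call, after quantile normalization 481 and in the 4 arrays alone 240. A kept call is past the threshold in the same direction, or not past it in either fit. Some of the 529 were not past it in the main fit, so that these are not counts of changes that stayed. Signal over background limits the precision of dim probes, and 1736 of the 22831 probes tested were below background on all 4 arrays. The DBA/2 samples alone give no strain difference, and the 4 arrays alone only the main comparison.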
